A study of Homo sapiens with 16 samples.

Results

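The 9 genes described here are known targets of the transcription factor p53: MDM2, PPM1D, CDKN1A, BTG2, SESN1, SESN2, FDXR, TP53INP1 and GDF15. They are 9 of the 59792 genes in the RefSeq table at hand, and each was taken as a fixed span of the hg19 genome plus 2 kb before its start and 5 kb past its end, here called its window. They were chosen with the Pol II cover of these same lists known, so the cover values below are a description and carry no test. RNA polymerase II (Pol II) was mapped by chromatin immunoprecipitation and sequencing, with an antibody to its subunit Rpb1, in hTERT RPE-1, a wild-type line of human retinal pigment epithelium that carries telomerase. All cells were held in 0.1% serum for 48 h. The groups were a control made of DMSO for 30 min (3 libraries) and untreated cells (3 libraries), 200 uM merbarone for 30 min (3 libraries) and 200 uM merbarone for 1 h (2 libraries). Topoisomerase II alpha (TOP2A) was mapped in untreated cells only (2 libraries). No DMSO group matched the 1 h time, the 3 IgG libraries were not analysed here, and the cell type label was not checked against marker genes because no hg19 annotation was used here.

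Each condition was represented by 1 list of peaks, that is, of genome intervals called as bound, with no height or score, and the control list joined the DMSO and untreated libraries. Values below thus carry no replicate error, the depth of reads is not known, and a difference between 2 lists compares those lists and not the conditions. The measure used is cover, the share of a region that lies under peaks. Before comparison the lists were given like limits: gaps of up to 37 bp were closed and any peak narrower than 159 bp was removed, which are the limits that the 1 h list already had. Over the whole genome Pol II peaks then covered 1.15 times as much length at 30 min as in control, and 1.44 times as much at 1 h as in control. With the lists as deposited these ratios were 1.11 and 1.36. The limits cut the control list from 87911 to 60318 peaks and left the 1 h list at 81816 peaks.

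The protein p53 is held at a low level in unstressed cells, mainly because MDM2 tags it for destruction. When DNA is damaged or transcription is disturbed, p53 builds up, binds a response element made of a pair of half-sites in or near its target genes and raises their transcription. Its targets include genes that stop the cell cycle, genes that handle oxidative stress and metabolism, and genes that switch p53 off again. Merbarone is a catalytic inhibitor of topoisomerase II, an enzyme that moves DNA strands past each other to relieve supercoils and tangles.

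The promoters of 3 members are shown because a match to the p53 consensus was found there, in genes whose first start lay under a Pol II peak in all 3 Pol II lists. The FDXR promoter is that of the first start, while those of MDM2 and SESN1 belong to starts inside the gene, and the printed stretches, given in another build, were not themselves checked for Pol II peaks. They are RefSeq sequences of GRCh38.p14, from 250 bases before to 50 bases after a transcript start, and the capitals mark the paired half-sites. The MDM2 promoter is the inner one, whose start lies 845 bp past the first start of the gene in that build, at chr12:68808767-68809066 on the plus strand. The FDXR promoter lies at chr17:74872945-74873244 and the SESN1 promoter at chr6:109008939-109009238, both on the minus strand. The SESN1 promoter shown is the innermost, 85.9 kb past the first start.
MDM2 inner promoter: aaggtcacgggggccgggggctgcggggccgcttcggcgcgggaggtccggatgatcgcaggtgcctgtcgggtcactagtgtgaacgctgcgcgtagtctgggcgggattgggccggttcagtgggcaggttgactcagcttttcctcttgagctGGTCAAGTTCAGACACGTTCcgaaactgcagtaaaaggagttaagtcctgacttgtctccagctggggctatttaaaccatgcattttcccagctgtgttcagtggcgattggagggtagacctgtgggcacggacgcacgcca
FDXR promoter: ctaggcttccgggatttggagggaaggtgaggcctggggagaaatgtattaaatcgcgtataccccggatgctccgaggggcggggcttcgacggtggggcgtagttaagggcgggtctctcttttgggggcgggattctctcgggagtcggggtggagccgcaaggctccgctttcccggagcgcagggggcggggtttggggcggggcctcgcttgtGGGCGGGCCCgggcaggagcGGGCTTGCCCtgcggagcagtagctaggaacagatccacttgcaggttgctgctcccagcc
SESN1 innermost promoter: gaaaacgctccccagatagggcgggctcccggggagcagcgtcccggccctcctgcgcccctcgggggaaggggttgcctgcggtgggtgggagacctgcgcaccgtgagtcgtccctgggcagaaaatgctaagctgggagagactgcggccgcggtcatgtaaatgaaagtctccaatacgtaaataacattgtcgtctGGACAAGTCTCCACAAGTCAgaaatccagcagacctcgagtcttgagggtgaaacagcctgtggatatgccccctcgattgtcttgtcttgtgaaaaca
The MDM2 match held 2 mismatches with no spacer and stood 94 to 75 bases before the start. The FDXR match held 2 mismatches with a spacer of 10 bases, and its first half-site overlapped the letters GGGCGG, a GC box. The SESN1 match held 3 mismatches with no spacer, 49 to 30 bases before the start.

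The search allowed 2 half-sites 0 to 13 bases apart on both strands, with the C and G of each core kept and at most 3 mismatches in all. Only the 300 bases of each promoter in the table were searched. Counted by gene, 4 of the 8 members in the table held such a match (MDM2, FDXR, SESN1 and GDF15), against 15.3% of all 27305 genes. Counted by promoter, 5 of 14 did, against 12.8% of all 35116 promoters, and 2 of the 5 are the same MDM2 site in overlapping stretches. With at most 2 mismatches, 2 members matched, MDM2 and FDXR, against 3.62% of all genes. The genes were taken as known p53 targets, and members had more promoters searched per gene (14 for 8, against 35116 for 27305). Nothing is thus read from the differences between these shares. The GDF15 promoter also held a match with 3 mismatches, past its start, and no Pol II peak. The single promoter stretch listed for each of CDKN1A, BTG2, SESN2 and PPM1D held no match, the rest of these genes was not searched, and TP53INP1 was not matched in the table. The letters GGGCGG stood on either strand in 13 of the 14 promoters, against 45.0% of all promoters. Some of the 14 overlap or share a gene, and by gene GGGCGG stood in 8 of the 8 members, against 48.3% of all genes. The letters TATAAA stood in 1 promoter, that of GDF15, against 11.5% of all promoters.

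Pol II lay at the starts of most members before any merbarone. A peak covered the start base in 7 of the 9 genes in control, in 7 at 30 min and in 8 at 1 h. The share of all gene starts under a peak was not computed, so these counts are a description only. The exceptions were GDF15 in every list and CDKN1A in control and at 30 min. In control a CDKN1A peak of 268 bp began 1 bp past the start base. Over the 1 kb around the start, the median cover of the 9 genes was 95% in control, 99.5% after 30 min and 100% after 1 h. In control this 1 kb was covered over at least 84.5% in 7 genes, 26.8% in CDKN1A and 0% in GDF15. Cover of the gene bodies in control was 82.1% in CDKN1A and at most 17.2% in the others.

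**Figure D1:**
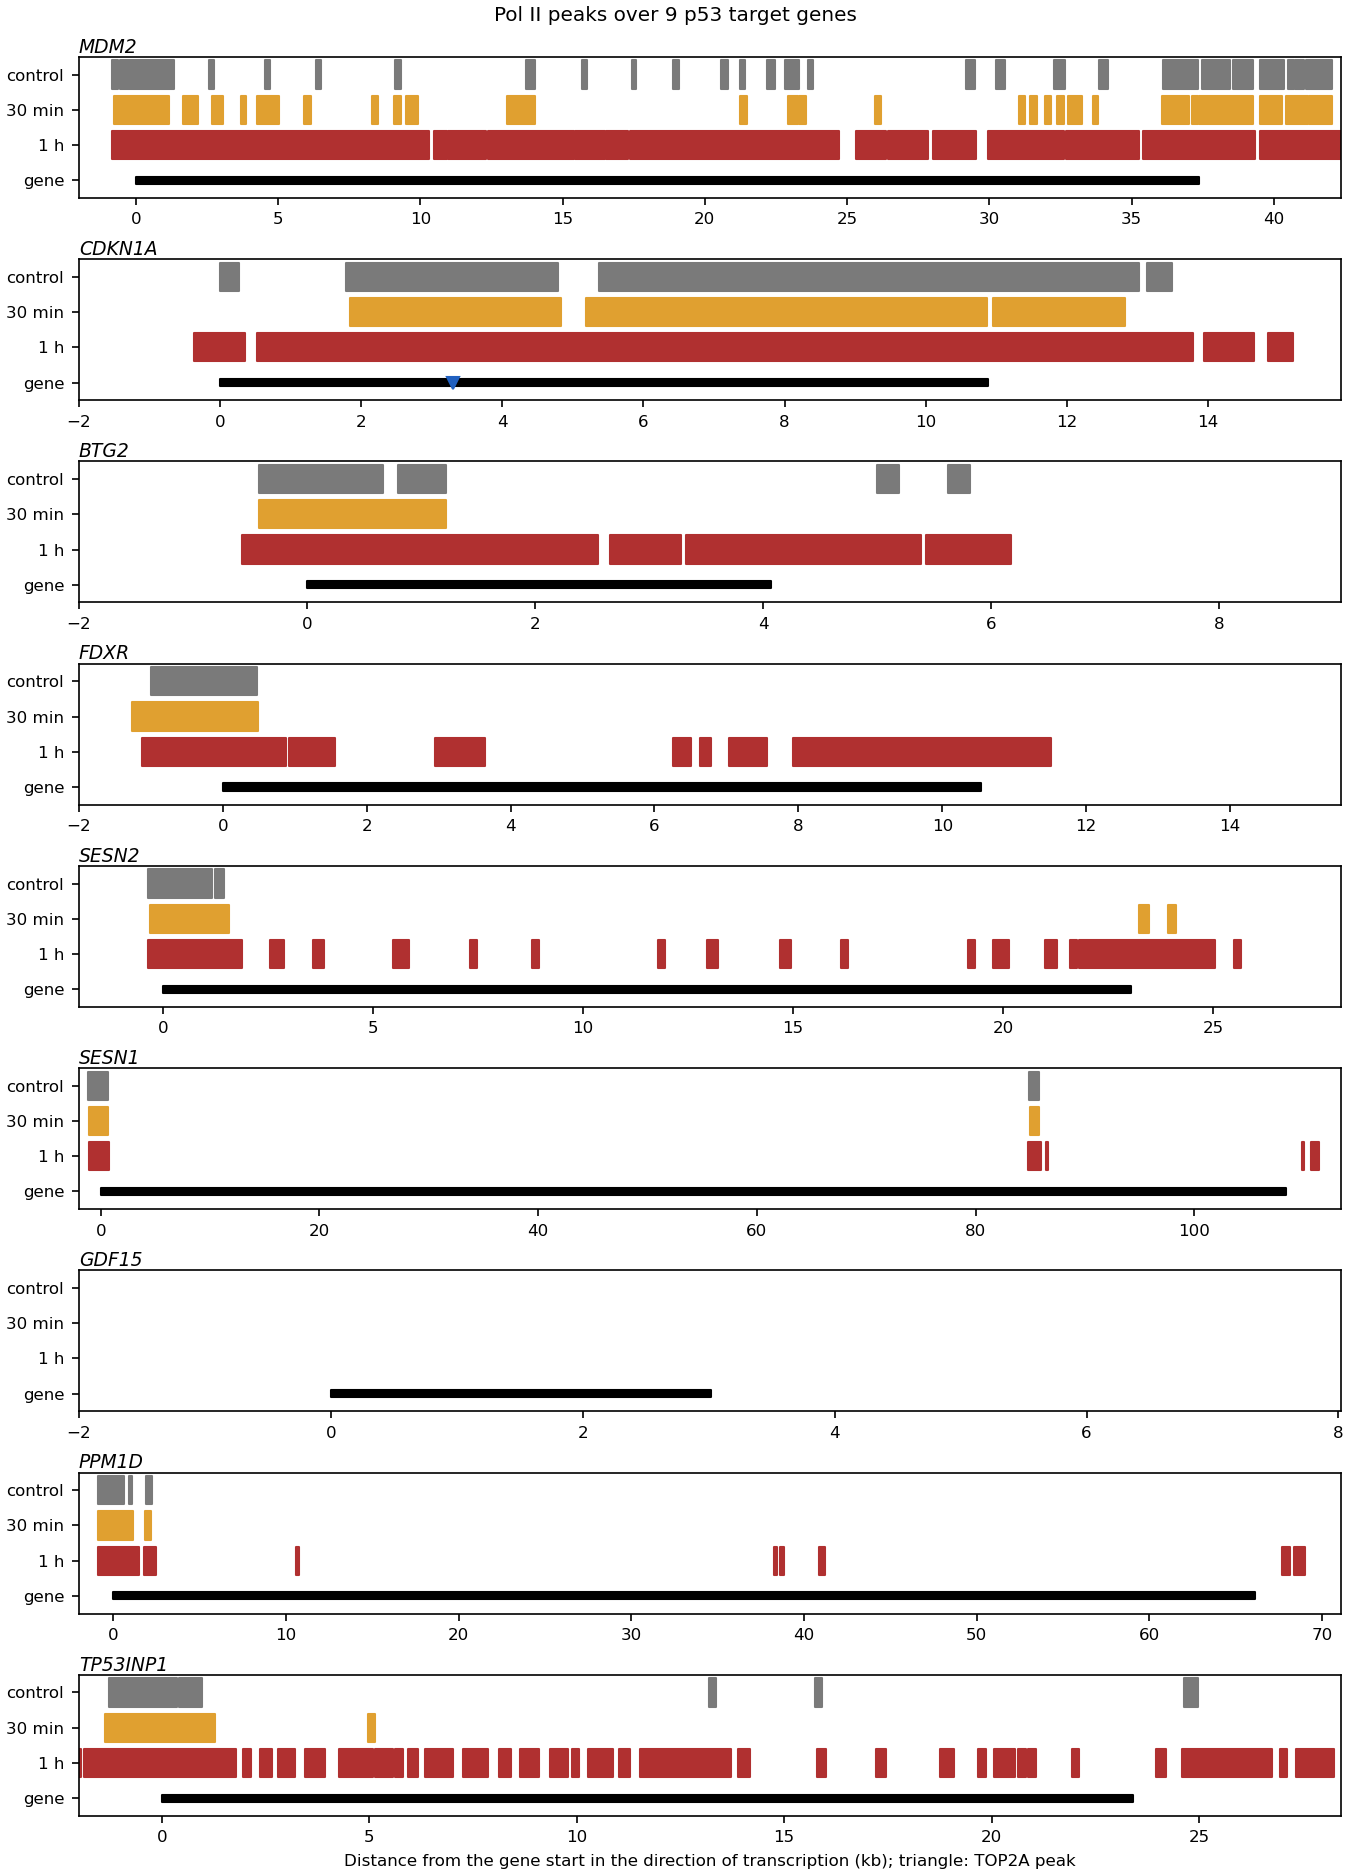
Pol II peaks over each gene window, with like limits, against distance from the gene start in kb in the direction of transcription; rows from the top are control, merbarone 30 min, merbarone 1 h and the gene span (black), and the triangle marks a TOP2A peak. At 1 h the peaks run along MDM2, CDKN1A, BTG2 and TP53INP1, and SESN1 and PPM1D gain small peaks past their ends, while GDF15 has none in any list.

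At 1 h of merbarone 6 of the 9 windows were covered more than in control by at least 10 percentage points, and none was covered less by that much. Of the 20 kb tiles of the genome that hold a control peak, 13.8% were covered more by that rule and 0.422% less. Since the genes were picked on this change, nothing is read from the difference between the 2 shares. The lowest change counted was 21.0 points, at CDKN1A, and the highest not counted was 4.34 points, at PPM1D. Points are shares of windows of unlike length, so they do not rank the genes by length gained. In the CDKN1A window of 17.9 kb, peaks covered 11.3 kb in control and 15.1 kb at 1 h. In the PPM1D window of 73.1 kb, they covered 2.00 kb in control and 5.17 kb at 1 h. The median change of the 9 windows was 23.6 points, beside 1.36 points for the tiles. The windows together held 107 kb under peaks at 1 h and 35.5 kb in control, a ratio of 3.02, and without MDM2 the ratio was 2.76.

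At 30 min of merbarone 0 of the 9 windows were covered more or less than in control by at least 10 points, while 4.55% of the tiles were covered more and 0.643% less. Of the windows, 4 were covered slightly more and 4 slightly less, with a median change of 0 points beside 0.345 for the tiles. The windows held 38.0 kb under peaks at 30 min and 35.5 kb in control. Between the merbarone times, 6 windows were covered more at 1 h than at 30 min by at least 10 points, against 8.86% of the tiles, and none less, against 1.1%. No vehicle library lasted 1 h, so the time in culture and the drug cannot be told apart at that time.

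**Figure D2:**
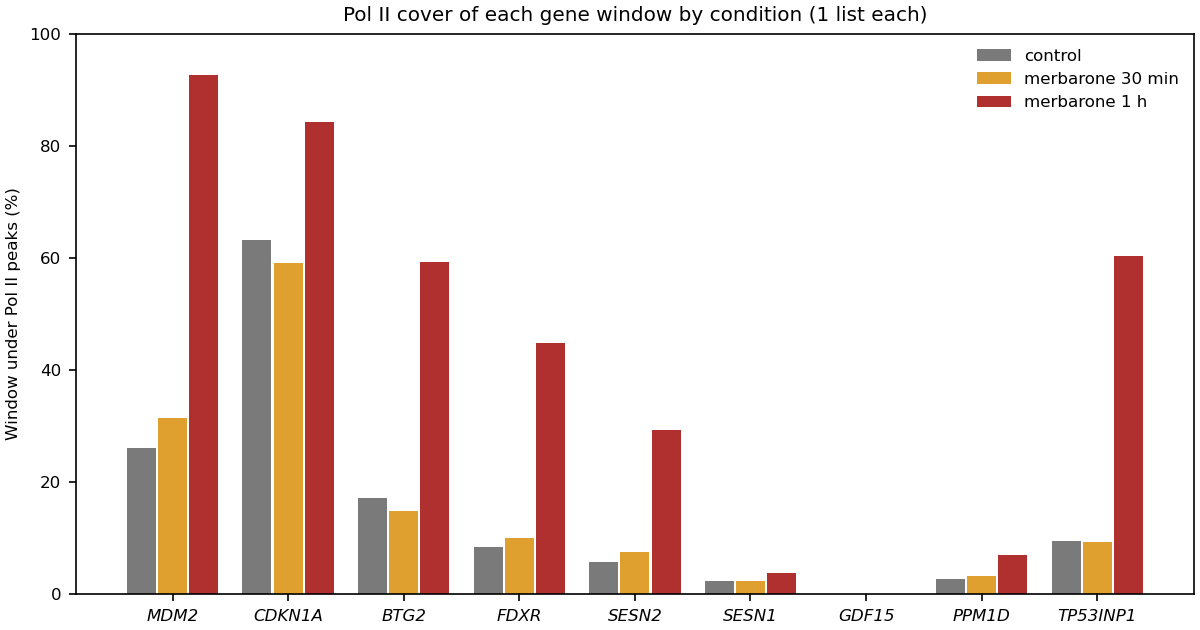
Share of each gene window under Pol II peaks, in percent, for control, merbarone 30 min and merbarone 1 h, 1 list per bar with no replicates. MDM2 reaches 92.7% at 1 h, against 26.1% in control, and the bars of control and 30 min differ by at most 5.38 points in any gene.

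The genes that feed back on p53 differed from each other. MDM2, the ubiquitin ligase that marks p53 for destruction, spans chromosome 12 from 69201971 to 69239320. Cover of its window was 26.1% in control, 31.4% after 30 min and 92.7% after 1 h. In control and at 30 min its Pol II peaks numbered 26 each, and the widest were 1.91 kb and 1.95 kb, both at the start. At 1 h they numbered 14, and the widest ran 11.1 kb from 69201146 to 69212286, from 825 bp before the start to 10.3 kb past it. The next in width, from 69219331 to 69226681, spanned 7351 bp in the middle of the gene. The largest stretch of the window free of peaks was 5.40 kb in control and 7.21 kb at 30 min, and at 1 h it was 1.18 kb, at the upstream edge of the window.

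Cut into 10 equal slices from start to end, every slice of the MDM2 span was covered over at least 83.9% at 1 h, whereas in control the slices lay between 5.44% and 41.0%. The outermost slices were the best covered in control. The 5 kb past its end lay under peaks for 79.2% in control, 84.2% after 30 min and 96.5% after 1 h. The neighbour CPM reaches into that flank in the RefSeq table, and these data carry no strand, so Pol II of MDM2 and of CPM cannot be told apart there. Within the gene span alone, cover was 18.3% in control, 24.0% after 30 min and 94.9% after 1 h.

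PPM1D, a phosphatase that removes activating phosphates from p53 and its kinases, was covered along little of its length in all lists. It spans chromosome 17 from 58677544 to 58743640. The PPM1D window had a cover of 2.73% in control, 3.23% after 30 min and 7.08% after 1 h. The peak over its start was 1505 bp wide in control, 2015 bp after 30 min and 2400 bp after 1 h, and it reached 594, 1129 and 1497 bp past the start. At 1 h 6 of its 8 peaks overlapped no control peak. Of these, 4 lay inside the gene and were at most 365 bp wide, and those past the gene end, from 58745205 to 58745685 and from 58745904 to 58746544, were 481 and 641 bp wide.

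The genes that restrain the cell cycle were already bound in control to unequal extents. CDKN1A, which encodes the cyclin-dependent kinase inhibitor p21, spans chromosome 6 from 36644237 to 36655116. Pol II peaks took up 63.1% of its window in control, 59.1% after 30 min and 84.2% after 1 h. In control the main peaks began 1.79 and 5.36 kb past the start and were 3.00 and 7.66 kb wide. At 1 h a single peak of 13.3 kb ran from 36644759 to 36658027, that is, from 0.522 to 13.8 kb past the start. Of the 1 kb around the start, 26.8% lay under peaks in control, 0% after 30 min and 72.7% after 1 h. DINOL, LAP3P2 and PANDAR lie in the CDKN1A window in the RefSeq table. These data carry no strand, so Pol II of CDKN1A and of these neighbours cannot be told apart. A single CDKN1A promoter was among the RefSeq promoters at hand, its start 2.25 kb past the first base of the gene in GRCh38.p14. Peaks ran from 1.79 to 4.79 kb past the first base in control and from 1.84 to 4.84 kb at 30 min. The 1 h peak of 13.3 kb also spanned that distance, though distances of the 2 builds were not converted. Low cover around the first base is thus no sign of low cover at the listed promoter. CDKN1A had the highest control cover of the 9 windows and, of the 8 with a control peak, the smallest ratio of 1 h to control, at 1.33. That control cover left less room for a rise than in the other windows. The CDKN1A ratio thus cannot be set against theirs.

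BTG2, an antiproliferative protein that promotes shortening of mRNA tails, spans chromosome 1 from 203274664 to 203278729. Cover of the BTG2 window was 17.2% in control, 14.9% after 30 min and 59.2% after 1 h. In control and at 30 min Pol II peaks filled the first 1.22 kb of the gene, apart from a gap in control, and lay nowhere else in it. At 1 h peaks covered 96.4% of the span, the widest being 3.12 kb from 203274099 to 203277216. Slices 4 to 10 of BTG2 had no control peak, and at 1 h each was covered over at least 74.6%. Peaks joined across gaps of up to 1 kb reached past the end by 1.75 kb in control, 0 kb after 30 min and 2.11 kb after 1 h. BTG2-DT lies in the BTG2 window in the RefSeq table, and its Pol II cannot be told apart from that of BTG2.

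The sestrins, which restrain the growth kinase mTORC1 and help cells withstand oxidative stress, differed in cover. SESN2 spans chromosome 1 from 28585963 to 28609002. Of its window, 5.75% lay under peaks in control, 7.60% after 30 min and 29.3% after 1 h. Its control peaks numbered 2, both within 1.46 kb of the start. At 1 h there were 16 peaks, of which 15 overlapped no control peak. Of those 15, 1 was wide: it spanned 3.25 kb across the gene end, from 28607762 to 28611015. At 30 min 2 small peaks, of 218 and 182 bp, already lay within that stretch. The other new peaks at 1 h were at most 376 bp wide and lay scattered along the gene and just past it.

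SESN1 spans 108 kb of chromosome 6, from 109307640 to 109416022, and 2.30% of its window lay under peaks in control, 2.28% after 30 min and 3.71% after 1 h. Its first start held a peak of 1.79 kb in control, 1.74 kb at 30 min and 1.85 kb at 1 h. A second peak lay deep in the gene in every list. It ran from 84.9 to 85.8 kb past the start in control, from 84.9 to 85.8 kb at 30 min and from 84.7 to 86.0 kb at 1 h, and its width was 862, 891 and 1257 bp. RefSeq lists SESN1 transcript starts 85.3 and 85.9 kb into the gene in GRCh38.p14. The start 85.9 kb in is that of the innermost promoter printed above. Distances of the 2 builds were not converted. The stretch of 84.0 kb between the SESN1 peaks held no peak at 1 h.

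FDXR, a mitochondrial reductase that passes electrons to ferredoxin, spans chromosome 17 from 72858619 to 72869156 on the minus strand. The FDXR window had a cover of 8.44% in control, 10.0% after 30 min and 44.8% after 1 h. In control and at 30 min the only peak lay over the start and ended 0.480 and 0.494 kb past it. At 1 h 6 of 7 peaks overlapped no control peak, and the widest, of 3.59 kb from 72857641 to 72861232, covered the gene's last part and 0.978 kb beyond its end. At 1 h slices 9 and 10 of FDXR were covered in full and slice 5 held no peak. In control slices 2 to 10 held none. FADS6 and GRIN2C lie in the same window in the RefSeq table.

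TP53INP1, a nuclear protein that promotes p53-dependent arrest and death and also takes part in autophagy, spans chromosome 8 from 95938200 to 95961615 on the minus strand. Cover of the TP53INP1 window was 9.46% in control, 9.24% after 30 min and 60.4% after 1 h. There were 5 peaks in control, 2 after 30 min and 32 after 1 h, and 28 of the 32 overlapped no control peak. The peak over its start was 1.64 kb wide in control, 2.64 kb at 30 min and 3.67 kb at 1 h. The cover was uneven along the gene: at 1 h the first 6 slices had a cover of 58.3% to 92.7%, and the last 4 of 7.60% to 60.1%. From 2 kb to 500 bp before its start, cover was 51.5% in control, 57.4% after 30 min and 96.4% after 1 h. NDUFAF6 lies in the same window in the RefSeq table, and Pol II of the neighbouring genes cannot be told apart.

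GDF15, a secreted stress cytokine of the TGF-beta family, spans chromosome 19 from 18496968 to 18499986 and held no Pol II peak in any list. The nearest peak to the gene stood 11.5 kb away in control, 11.5 kb at 30 min and 7.62 kb at 1 h. Peak lists hold only what passed a threshold, so Pol II below that threshold cannot be seen at GDF15.

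**Figure D3:**
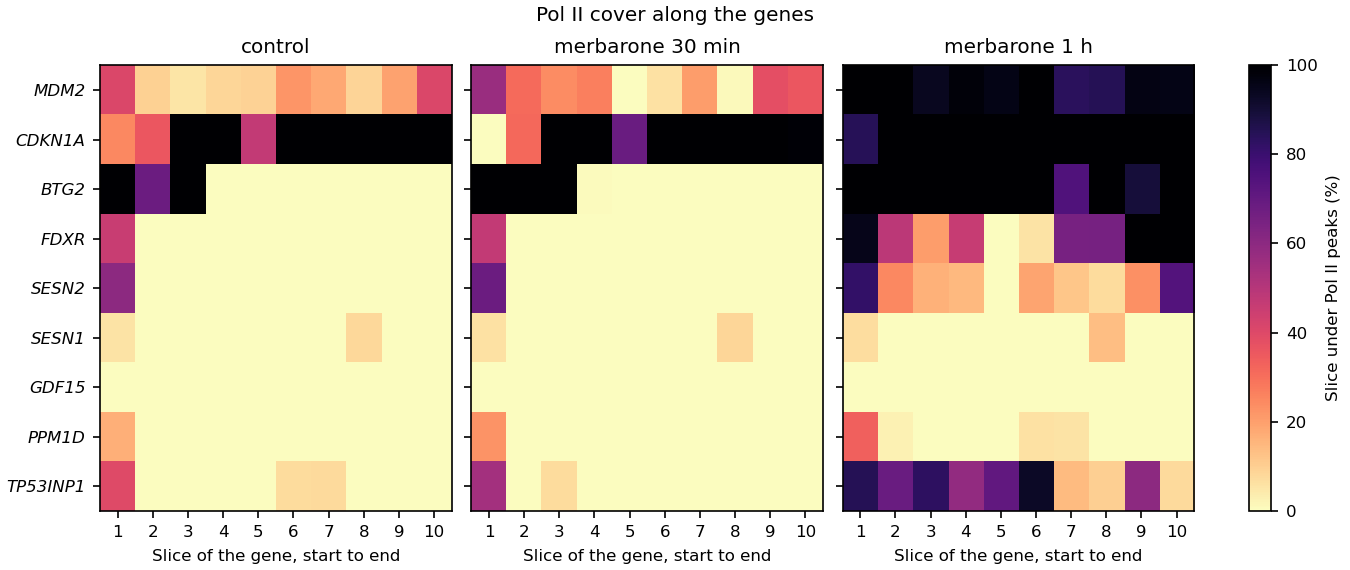
Pol II cover of each of 10 equal slices of the 9 genes, from start (1) to end (10), in percent, for control, merbarone 30 min and merbarone 1 h, 1 list per panel. In control and at 30 min cover sits in the first slice outside MDM2 and CDKN1A, save for the first 3 slices of BTG2, an inner SESN1 slice and single TP53INP1 peaks, and at 1 h it runs through MDM2, CDKN1A and BTG2 and stands at both ends of FDXR and SESN2.

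The change in cover was also taken by part of the gene. Around the start, from 500 bp before to 500 bp after, summed cover over the 9 genes was 7.57 kb at 1 h and 6.96 kb in control, a ratio of 1.09. The median cover of this part in control was already 95%, and cover has no height, so it could rise little there. Its ratio thus cannot be set against those of the other parts. CDKN1A alone held 0.268 kb of this part in control, 0 kb at 30 min and 0.727 kb at 1 h. From there to the gene end summed cover was 76.5 kb at 1 h and 18.7 kb in control, a ratio of 4.08. Over the 5 kb past the end it was 19.6 kb at 1 h and 7.19 kb in control, a ratio of 2.73. At 30 min these sums were 6.73 kb around the start, 21.9 kb in the body and 6.48 kb past the end, with ratios to control of 0.967, 1.17 and 0.902. MDM2 contributed 34.95 kb of the summed body cover at 1 h.

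Past the end, 8 of the 9 genes were covered more at 1 h than in control by at least 10 points, including SESN1 and PPM1D, whose whole windows were not. Of all 5 kb parts of the 20 kb tiles, 15% were covered more by that rule. The 5 kb past the end held no control peak in FDXR, SESN2, SESN1, PPM1D and GDF15, and of 5 kb parts with no control peak 4.5% were covered more by at least 10 points. Such parts are not flanks past gene ends, and these flanks belong to the windows on which the genes were chosen. Nothing is thus read from the differences between these shares. At 1 h this flank was covered over 19.6% in FDXR, 43.5% in SESN2, 19.5% in SESN1, 22.4% in PPM1D and 0% in GDF15. ARMC2 and CEP57L1 lie in the SESN1 window in the RefSeq table, and how much of this flank belongs to neighbours was not tested. In TP53INP1 it was covered over 6.62% in control, 0% after 30 min and 70.5% after 1 h.

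Runs of peaks with gaps of up to 1 kb reached farther past the end at 1 h than in control in 6 genes. The reach at 1 h was 8.77 kb in MDM2, 5.83 kb in TP53INP1, 4.32 kb in CDKN1A, 2.63 kb in SESN2, 2.11 kb in BTG2 and 0.978 kb in FDXR. In control it was 4.68 kb in MDM2, 2.61 kb in CDKN1A and 1.75 kb in BTG2, and 0 kb in the others. The reach past other gene ends was not computed, and over the whole genome the 1 h list covered 1.44 times the control length. The 1 h runs of MDM2 and TP53INP1 went beyond the 5 kb flank. CPM and NDUFAF6 lie in these windows in the RefSeq table, so Pol II of the neighbours cannot be told apart. SESN1 and PPM1D had no such run in any list, since their peaks past the end began over 1 kb away from it.

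Pol II domains, built by joining peaks of the 3 lists across gaps of up to 5 kb, gave another view of the same lists. The genes were chosen on these lists, so nothing is read from the differences between the shares below. Both edges of the BTG2 and CDKN1A domains were those of 1 h peaks, which favours high cover at 1 h. Domains that spanned 5 kb or more and held peaks of both lists compared contained 6 members: MDM2, CDKN1A, BTG2, FDXR, SESN2 and TP53INP1. All 6 domains were covered more at 1 h than in control by at least 10 points, as were 57.2% of 5273 such domains, and 0 of the 6 at 30 min, against 25.7% of 5233. All 6 were covered more at 1 h than at 30 min by that rule, as were 39.5% of 5423. FDXR lay in a domain of 12.8 kb with a cover of 11.6% in control, 13.8% after 30 min and 61.5% after 1 h. The TP53INP1 domain of 37.4 kb had a cover of 7.70%, 7.52% and 55.9% in the same order. The domains with the most overlap with SESN1 and PPM1D were under 5 kb, and GDF15 overlapped none.

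**Figure D4:**
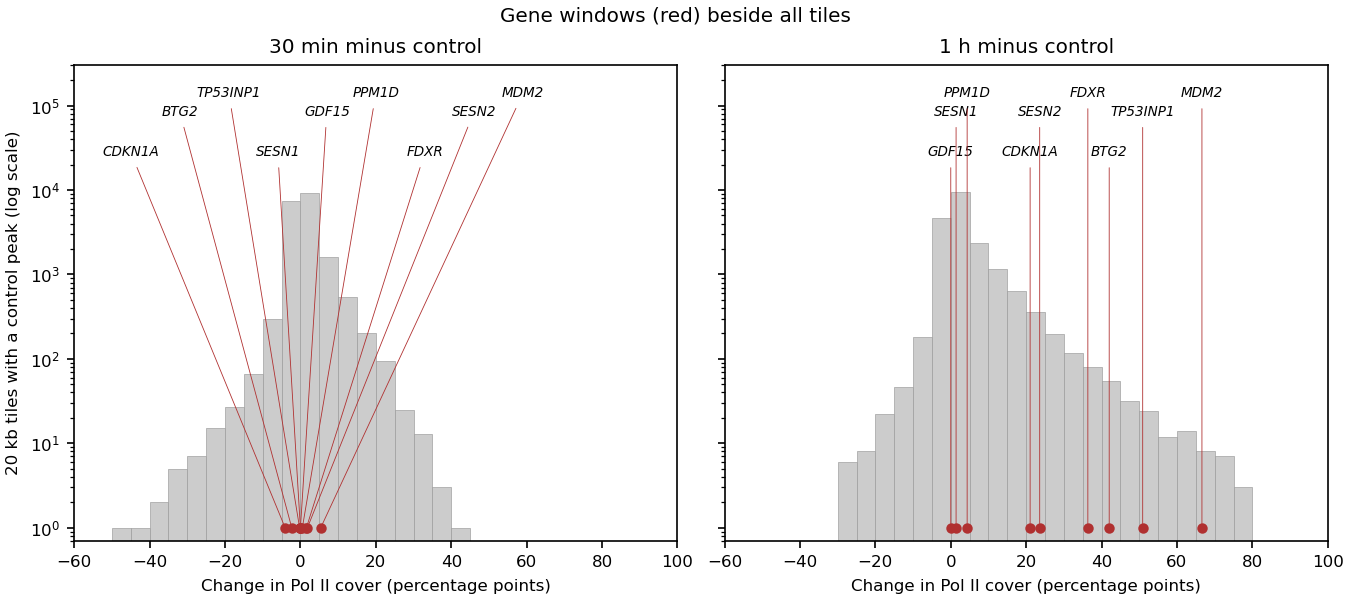
Number of 20 kb tiles with a control peak, on a log axis, by the change in Pol II cover in percentage points, for 30 min minus control (left) and 1 h minus control (right), with the 9 gene windows as red points placed at their change. At 30 min the genes lie between -4.06 and 5.38 points, and at 1 h from 0 to 66.6 points.

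TOP2A was mapped without drug. The genes were chosen with this list at hand too, so its values are a description. A single TOP2A peak lay in the 9 windows, 85 bp wide at chromosome 6 from 36647499 to 36647583, inside CDKN1A and 3304 bp past its start. Of the 20 kb tiles with a control Pol II peak, 6.66% held a TOP2A peak, and of domains of at least 5 kb, 9.19% did. The CDKN1A site lay inside Pol II peaks of 3.00 kb in control, 3.00 kb at 30 min and 13.3 kb at 1 h. For the other 8 genes the nearest TOP2A peak stood between 87.5 kb, at SESN2, and 1527 kb, at SESN1, from the gene. MDM2 was 1184 kb from the nearest. TOP2A after merbarone was not analysed here.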

How the data were processed

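The authors deposited 4 lists of peaks as start and end positions in bp, which are neither a count nor a score. Per the submitters' processing notes, Bowtie 1.2.0, MACS2 and deepTools 2.4.1 were used on hg19; the peak threshold, the background library and the joining of replicates were not given in the sources used here. Positions were read as counted from 0 and are printed counted from 1. Gene spans were fixed hg19 spans, and members, lists and measures were chosen with earlier results of these data known. The like limits come from the 1 h list. Tiles of 20 kb run from the first base of each chromosome and were kept where they held a control peak. All 9 members are named, with their widest peaks and every TOP2A peak. Promoters were printed for members with a p53 match and a Pol II peak over the first start of the gene. A list of other p53 pathway genes and a list of cell type markers were not run, since no hg19 annotation was used here. Neighbour names come from RefSeq on GRCh38.p14. No test was made. The 5 checks of the interval functions on simulated data gave the values of bedtools 2.31.1, and all 200 simulated gains in 20 kb tiles were found. Scripts ran in Python 3.11.15 with numpy 2.4.6 and matplotlib 3.10.9.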

Additional observations from a re-analysis of the deposited data

How the results depend on the processing

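The counts of windows covered more by at least 10 points, 0 at 30 min against control, 6 at 1 h against control and 6 at 1 h against 30 min, were the same with lists as deposited, with peaks of at least 300 bp only, with peaks within 1 kb joined, over the gene span alone and with a limit of 20 points. With Pol II domains of any width in place of windows they were 0, 8 and 8, adding SESN1 and PPM1D through domains under 5 kb. The PPM1D domain was made of 1 h peaks alone, with a cover of 0% in control, 0% at 30 min and 25.8% at 1 h. Both edges of the SESN1 domain were those of 1 h peaks. The share of all domains of any width that were covered more was not computed, so nothing is read from these additions. No called change turned its sign. The small changes at 30 min did: BTG2 changed by -2.30 points, but by 1.27 with peaks of at least 300 bp and 3.27 over the span, and SESN1, PPM1D and TP53INP1 also changed sign under at least 1 alternative. Starts with a peak, and the 1 TOP2A site, were the same under every alternative tried on them. The summed ratio of 1 h to control, an added check, was 2.76 without MDM2, and over all settings of the lists, with and without MDM2, it ran from 2.61 to 3.20, both with peaks of at least 300 bp. The share of tiles covered more at 1 h than in control, also added after seeing the data, was 21% with 10 kb and 6.14% with 50 kb tiles, so it depends on tile size. No paired analysis was possible because each condition has 1 list for all its libraries, and no library could be left out. Depth was unknown, so greater cover through depth and greater cover through more binding cannot be told apart.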
